A study of Mus musculus with 10 samples.

Results

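The transcripts described here are those of 7 genes by which brain cells take up and burn ketone bodies and lactate, which are Acat1, Bdh1, Oxct1, Slc16a1, Slc16a7, Ldha and Ldhb. They were matched by symbol among the 53700 gene identifiers of the deposited count files, and all 7 were found and were among the 19268 genes tested. Acat1 was selected on its measured difference in the very contrast reported below, and the other 6 were named with it for their place in the same metabolism, with results of these data already known. The cortices came from female mice at 4 months of age, 5 with the genotype label 5XFAD; Idol; Camk2a-cre cKO, named 5XFAD;Neu cKO here, and 5 with the label 5XFAD; Idol; Camk2a-cre WT, named 5XFAD here. Every mouse of both groups carried the 5XFAD transgenes, which express human amyloid precursor protein and presenilin with familial Alzheimer's disease mutations from Thy1 sequence. The controls were littermates. Camk2a-Cre acts mainly in forebrain excitatory neurons, so glia and vessels of the 5XFAD;Neu cKO cortex keep Idol. Libraries held 3′ end reads, which number about 1 per transcript whatever its length, and 4320504 to 7466192 reads fell on genes in each.

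Ketone bodies are made by the liver from fatty acids and reach the brain in blood, where they stand in for glucose during fasting and suckling. Monocarboxylate transporters carry both ketone bodies and lactate across membranes, MCT1 (Slc16a1) chiefly in vessels and glia and MCT2 (Slc16a7) chiefly in neurons. Inside mitochondria, BDH1 oxidises beta-hydroxybutyrate to acetoacetate, OXCT1 attaches coenzyme A to acetoacetate, and ACAT1, the mitochondrial acetoacetyl-CoA thiolase, splits the product to acetyl-CoA for the tricarboxylic acid cycle. ACAT1 also takes part in the last step of isoleucine breakdown. Lactate dehydrogenase interconverts lactate and pyruvate and is assembled from LDHA and LDHB subunits.

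The targeted gene itself does not separate the groups in these libraries. Mylip, which encodes IDOL, was at 14.8 ± 4.90 CPM (SD, n = 5) among libraries with the label 5XFAD;Neu cKO, called cKO-labelled below, and at 11.2 ± 2.27 CPM among the controls, and the groups overlapped. CPM is a gene's count relative to the size of its library, after a scaling (TMM) that allows for libraries dominated by different genes. A 3′ read does not show whether a deleted part of the gene was in the transcript, so the directions below are between libraries as labelled. Each library is 1 mouse, and the tests set the difference between groups against the variation between mice. In edgeR that variation is estimated in part from all genes tested. Litter and cage are not given and entered no test. In bulk cortex, fewer cells of a type and less RNA per cell cannot be told apart.

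Acat1 was 46.8% higher in the cKO-labelled libraries, and the 6 other genes of the set lay within the spread between libraries. Acat1 (ENSMUSG00000032047) lies on the minus strand of chromosome 9 of GRCm39, from 53450461 to 53521731. In 5XFAD replicates 1 to 5 it was counted 325, 194, 468, 304 and 201 times, which is 63.0, 45.5, 63.6, 56.7 and 45.1 CPM. In cKO-labelled replicates 1 to 5 it was counted 391, 463, 585, 511 and 575 times, or 73.1, 85.2, 76.8, 86.0 and 82.6 CPM. Every cKO-labelled library was thus above every control, with means of 80.7 ± 5.58 CPM and 54.8 ± 9.05 CPM (SD, n = 5). The log2 fold change was 0.55 with a standard error of 0.12 and a 95% interval from 0.32 to 0.79. Its adjusted p of 0.0144 (quasi-likelihood test of edgeR, Benjamini-Hochberg adjustment over all genes tested) is the value for which the gene was chosen and is given as a description. Among the 11 genes called higher it was the 8th by size of change.

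Of all genes tested, 0.218% passed an adjusted p of 0.05 in either direction and 0.0571% passed as higher, and 1.30% had groups that did not overlap in CPM. Acat1 was the 1 gene of the 7 in each of these classes, by way of its selection. Its call depended on single mice. When single libraries were omitted, its log2 fold change ran from 0.49 to 0.62 and 6 of 10 fits passed. The adjusted p was 0.0783 without 5XFAD replicate 2, 0.0614 without 5XFAD replicate 5, 0.0707 without 5XFAD;Neu cKO replicate 4 and 0.0525 without 5XFAD;Neu cKO replicate 5.

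**Figure D1:**
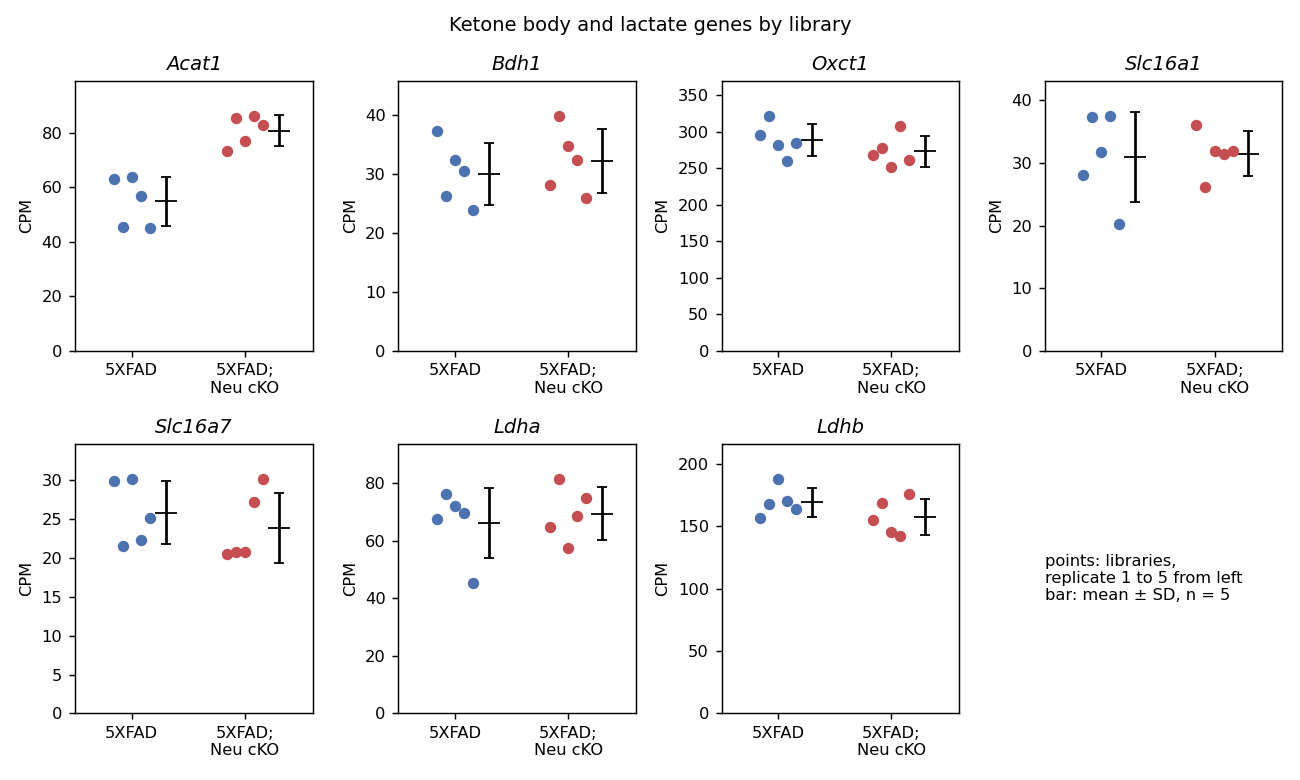
CPM of each of the 7 genes in every library, in groups as labelled, with 5XFAD in blue and 5XFAD;Neu cKO in red and the mean ± SD (n = 5) as a bar beside them. The axes start at 0 and differ between panels, and only Acat1 has groups that do not overlap.

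The enzymes next to ACAT1 in the pathway did not pass. Bdh1 (ENSMUSG00000046598, chromosome 16, 31241087 to 31277725, plus strand), whose product opens the pathway for beta-hydroxybutyrate, was at 37.2, 26.3, 32.3, 30.4 and 23.8 CPM in 5XFAD replicates 1 to 5. In cKO-labelled replicates 1 to 5 it was at 28.04, 39.7, 34.7, 32.3 and 25.9 CPM. The groups overlapped over most of their range, and 1 cKO-labelled library, replicate 2, was above the highest 5XFAD library. The log2 fold change was 0.09 (95% interval -0.23 to 0.41, edgeR's adjusted p = 0.964), and without single libraries it ran from 0.0074 (cKO-labelled replicate 2 omitted) to 0.18 (5XFAD replicate 1 omitted).

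Oxct1 (ENSMUSG00000022186, chromosome 15, 4055638 to 4184828, plus strand) encodes the transferase on which ketone body use depends, which is absent from liver. It had the most reads of the set, 1268 to 2072 per library. It was at 295, 321, 281, 260.4 and 285 CPM in 5XFAD replicates 1 to 5, and at 269, 278, 251.7, 308 and 261 CPM in cKO-labelled replicates 1 to 5. The highest value was in 5XFAD replicate 2 and the lowest in 5XFAD;Neu cKO replicate 3, with the groups interleaved between them. The log2 fold change was -0.08 with an interval from -0.24 to 0.09 (edgeR's adjusted p = 0.909), so the bounds allow a change from 15.4% lower to 6.19% higher.

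The transporters showed no difference beyond the spread either. Slc16a1 (ENSMUSG00000032902, chromosome 3, 104545811 to 104565780, plus strand) was at 28.1, 37.3, 31.8, 37.5 and 20.2 CPM in 5XFAD replicates 1 to 5. It was at 36.1, 26.1, 31.9, 31.5 and 31.9 CPM in cKO-labelled replicates 1 to 5, all inside the range of the 5XFAD libraries. Its log2 fold change was 0.02 (interval -0.30 to 0.35, edgeR's adjusted p = 0.991), and the sign turned in 3 of 10 fits without a single library.

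Slc16a7 (ENSMUSG00000020102, chromosome 10, 125055129 to 125225463, minus strand) was at 29.8, 21.6, 30.2, 22.4 and 25.1 CPM in 5XFAD replicates 1 to 5. It was at 20.6, 20.8, 20.7, 27.3 and 30.2 CPM in cKO-labelled replicates 1 to 5, so that 3 of these libraries lay below all 5XFAD libraries and replicate 5 was level with the highest. The log2 fold change was -0.11 (interval -0.46 to 0.23, edgeR's adjusted p = 0.958).

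Ldha and Ldhb encode the muscle-type and heart-type subunits of lactate dehydrogenase, the former abundant in tissue that makes lactate and the latter in tissue that burns it. Ldha (ENSMUSG00000063229, chromosome 7, 46490899 to 46505061, plus strand) was at 67.4, 76.3, 71.996, 69.5 and 45.3 CPM in 5XFAD replicates 1 to 5 and at 64.7, 81.5, 57.4, 68.5 and 75.0 CPM in cKO-labelled replicates 1 to 5. Replicate 5 of the 5XFAD group stood below all other libraries. The log2 fold change was 0.07 (interval -0.18 to 0.32, edgeR's adjusted p = 0.966), and -0.04 without that replicate.

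Ldhb (ENSMUSG00000030246, chromosome 6, 142435672 to 142454586, minus strand) was at 156, 168, 188, 170.0 and 164 CPM in 5XFAD replicates 1 to 5 and at 155, 168, 145, 142 and 176 CPM in cKO-labelled replicates 1 to 5. In 5XFAD;Neu cKO, 3 libraries lay below the lowest 5XFAD library and 2 lay within the range of the 5XFAD libraries. The log2 fold change was -0.11 (interval -0.29 to 0.07, edgeR's adjusted p = 0.871), the smallest adjusted p among the 6 genes named with Acat1.

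**Figure D2:**
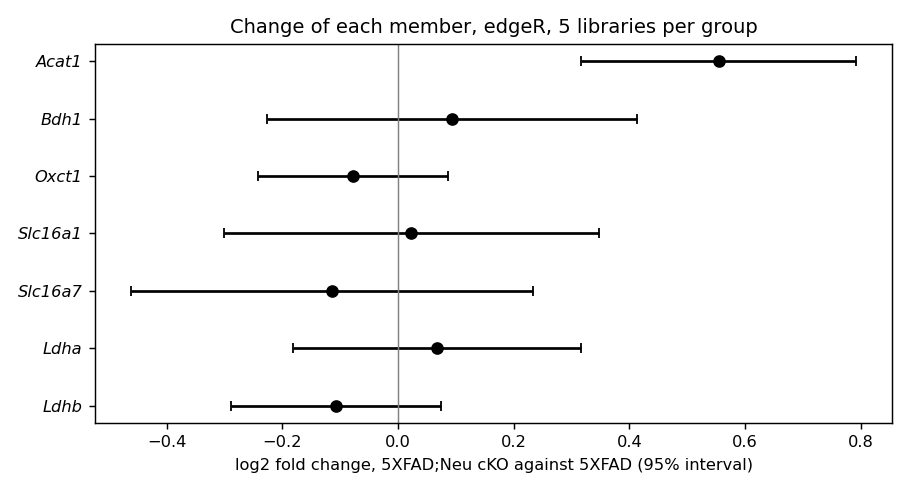
Log2 fold change of each of the 7 genes, cKO-labelled libraries against controls, with points for edgeR's estimate and bars for its 95% interval (5 libraries per group). The interval of Acat1 runs from 0.32 to 0.79, and those of the other 6 genes hold 0.

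Across the 6 other genes the interval bounds ran from -0.46 to 0.41 on the log2 scale. All 6 upper bounds were below 0.55, the estimate for Acat1, and 4 of the 6 intervals did not meet that of Acat1. Among the 4 is that of Ldha, with an upper bound of 0.3162 against a lower bound of 0.3164 for Acat1. Acat1 was chosen on this contrast, so its estimate and interval are no independent measure. The difference between Acat1 and each of the 6 genes was not tested for the same reason. The variation between mice beyond counting noise, as edgeR estimates it, was lowest for Oxct1 at 10.5% and highest for Slc16a7 at 18.2%, and counting noise added 2.49% to 8.30%. That of Acat1 was 13.3%.

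Ratios of 2 genes within a library do not depend on its size. The count of Ldha per read of Ldhb was 0.277 to 0.454 in 5XFAD libraries, with a median of 0.409, and 0.395 to 0.484 in cKO-labelled libraries, with a median of 0.426. The mean log2 ratio was higher by 0.19 in 5XFAD;Neu cKO (exact two-sided permutation test, p = 0.206, adjusted over 3 ratios 0.5, n = 5 per group), and by 0.072 without 5XFAD replicate 5, the library with the lowest Ldha. Slc16a7 per read of Slc16a1 was 0.579 to 1.24 in 5XFAD and 0.570 to 0.946 in 5XFAD;Neu cKO, a difference of -0.17 on the log2 scale (exact two-sided permutation test, p = 0.508, adjusted 0.508). Oxct1 per read of Bdh1 was 7.93 to 12.2 in 5XFAD and 7 to 10.1 in 5XFAD;Neu cKO, a difference of -0.18 (exact two-sided permutation test, p = 0.333, adjusted 0.5). In the 3 ratios the groups overlapped.

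For Acat1 the ratios are a description, with no test. Reads of Acat1 per read of Oxct1 were 0.213, 0.142, 0.226, 0.218 and 0.159 among controls in order of number, against 0.272, 0.306, 0.305, 0.279 and 0.317 in cKO-labelled replicates 1 to 5. Reads of Acat1 per read of Bdh1 were 1.69 to 1.97 in 5XFAD and 2.14 to 3.19 in 5XFAD;Neu cKO. Neither ratio overlapped between the groups. Both hold Acat1, which was chosen for its difference in this contrast, so they are no further evidence of that difference. They compare reads of transcripts, not amounts of enzyme.

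**Figure D3:**
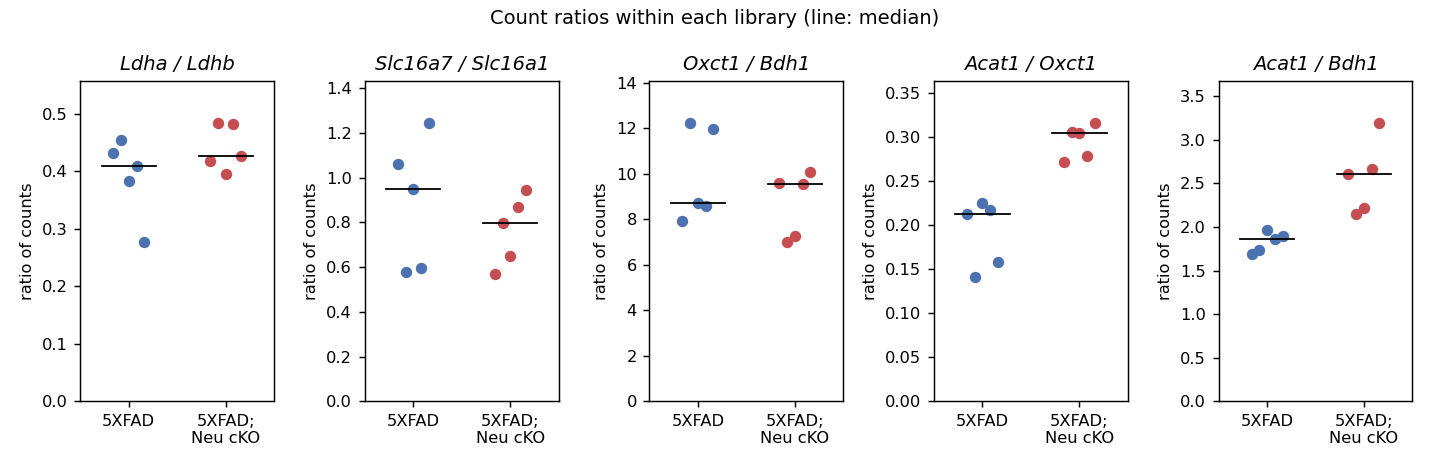
Ratio of the raw counts of 2 genes in each library, with 5XFAD in blue, 5XFAD;Neu cKO in red and a line at the median of 5. Ldha to Ldhb, Slc16a7 to Slc16a1 and Oxct1 to Bdh1 overlap between the groups, and both ratios that hold Acat1 do not.

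The deviations of Acat1 from its group means were compared with those of the other members over the 10 libraries. Pearson's r was 0.71 with Bdh1, 0.59 with Slc16a7, 0.49 with Ldha, 0.21 with Ldhb, 0.10 with Slc16a1 and -0.10 with Oxct1. These are descriptions over few libraries, and both genes of a pair come from the same library. Among 9355 other genes with a mean count of 50 or more, the most alike were Snx3 (r = 0.94), Actn1 (r = 0.93) and Eif4g3 (r = 0.93), none of them past the threshold between the groups (adjusted p of 0.876, 0.777 and 0.0763 in edgeR). With so many genes compared over 10 libraries, values of this size are the top of a long list.

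Reads that could belong elsewhere bear differently on the members. The last 400 exonic bases of the transcript that the annotation marks as canonical were cut into 82 windows per member. The windows had read length and were placed on GRCm39. No window of Acat1, Bdh1, Oxct1, Slc16a1 or Slc16a7 had another near match (at most 3 differences and 6 unaligned bases). Other annotated ends of the members were not placed. For Ldha, 47 of the 82 windows had another near match, on 11 chromosomes, and 3 had an exact one. For Ldhb, 69 of 82 had one on chromosome 19, where the annotation places the processed pseudogene Ldhb-ps, and 7 were exact. Ldhb-ps itself was given 11 reads over the 10 libraries against 9464 for Ldhb. Near matches of windows outside any annotated pseudogene had 29 positions for Ldhb, all on chromosome 19, and 220 for Ldha. The windows began 4 bases apart and overlapped, so the same stretch of sequence can hold many positions. The positions are therefore not numbers of separate copies. The reads of Ldhb-ps do not cover them. The files list reads without a unique place apart from all genes, so the levels of Ldha and Ldhb are uncertain.

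Acat1 shares part of its span with Npat, a regulator of histone genes read from the opposite strand, without exonic overlap in those last 400 bases. Npat was at 30.1 ± 3.22 CPM with and 36.6 ± 4.82 CPM without the cKO label (SD, n = 5), with a log2 fold change of -0.28 (edgeR's adjusted p = 0.680). The strand setting of the counting is not given in the sources used here. On the other side of Acat1, Cul5, a scaffold of ubiquitin ligases, differed by -0.05 on the log2 scale (adjusted p = 0.969), and Atm, the DNA damage kinase next to Npat, had -0.37 (adjusted p = 0.558). Of the 8 nearest tested genes, 4 were higher and 4 lower. Here edgeR called 0 of them and DESeq2 called 0, with 1 at an unadjusted p under 0.05. The other 5 were Poglut3, 4930550C14Rik, Gm16124, Rps6-ps3 and Rab39, and 4 of the 8 had under 100 reads in all libraries together.

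No other gene passed in the wider set of fuel genes. The lists of ketone body metabolism, lactate transport and conversion, pyruvate entry, glycolysis, the tricarboxylic acid cycle, fatty acid oxidation with its thiolases, breakdown of branched-chain amino acids and sterol acyltransferases held 116 genes, 109 of which were tested. Leaving out the 7 members, edgeR called 0 of 102 genes and DESeq2 called 0. At an unadjusted p under 0.05 there were 9 of the 102 (8.82%), where 7.95% of all genes tested had such a p. Of the 102 genes 46 were higher, their median log2 fold change was -0.013 beside -0.00056 for all genes tested, and 0 had groups that did not overlap.

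Among 10 ketone body genes tested, 4 were higher and 6 lower, with a median of -0.057, and Acat1 was the 1 past the threshold. Acat2, the cytosolic thiolase that feeds sterol synthesis, was at 34.7 CPM against 36.0 CPM (log2 fold change -0.06, adjusted p = 0.982). Aacs, which spends acetoacetate on lipid synthesis, had 0.40 (adjusted p = 0.839). Oxct2a and Oxct2b, forms of the transferase known from testis, had too few reads to be tested.

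Among 12 genes of lactate transport and conversion tested, 4 were higher and 8 lower, with a median of -0.10, and none had an unadjusted p under 0.05 in edgeR. Basigin (Bsg), the partner that brings MCT1 to the membrane, had -0.09 (interval -0.26 to 0.08, adjusted p = 0.884). Embigin (Emb), a related partner, had -0.33 (adjusted p = 0.702), the lowest of those with a mean count of 50 or more. All 12 ran from -0.45 to 0.52. Neuroplastin (Nptn), a member of the same family, had -0.12 (adjusted p = 0.811). Ldha had the highest value of those with a mean count of 50 or more.

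The ends given next are those among genes with a mean count of 50 or more. All genes tested ran from -0.60 to 0.61 in pyruvate entry and from -0.55 to 0.53 in glycolysis. In pyruvate entry the ends were Pdk3, a kinase that restrains pyruvate dehydrogenase, at 0.31 (adjusted p = 0.734), and Pcx, pyruvate carboxylase, an enzyme of astrocytes, at -0.60 (standard error 0.20, adjusted p = 0.353). Pcx was at 11.2 to 16.02 CPM in 5XFAD;Neu cKO and 15.1 to 24.03 CPM in 5XFAD, so the groups overlapped. In glycolysis the ends were Pfkl, a phosphofructokinase, at 0.35 (adjusted p = 0.529) and Gpi1, glucose-6-phosphate isomerase, at -0.20 (adjusted p = 0.545). In the tricarboxylic acid cycle they were 2 subunits of succinate dehydrogenase, Sdhd at 0.66 (adjusted p = 0.445), which was at 3.52 to 31.6 CPM in 5XFAD and 17.7 to 35.4 CPM in 5XFAD;Neu cKO, and Sdhb at -0.28 (adjusted p = 0.436).

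Among genes of fatty acid oxidation with a mean count of 50 or more, the ends were Hadh and Acaa1a. Hadh, which acts just before the thiolases, had 0.09 (adjusted p = 0.973). Acaa1a, a peroxisomal thiolase, had -0.40 (adjusted p = 0.737). All 15 genes tested in this list ran from -1.20 to 2.73. In branched-chain amino acid breakdown the ends were Ivd, of leucine breakdown, at 0.47 (adjusted p = 0.529) and Hsd17b10, which precedes ACAT1 in isoleucine breakdown, at -0.18 (adjusted p = 0.926). The name ACAT1 is also used for the cholesterol acyltransferase encoded by Soat1, a different gene, which was at 49.3 ± 11.6 CPM in 5XFAD;Neu cKO and 48.5 ± 2.02 CPM in 5XFAD (SD, n = 5; log2 fold change 0.02, adjusted p = 0.991). Soat2 had too few reads to be tested.

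**Figure D4:**
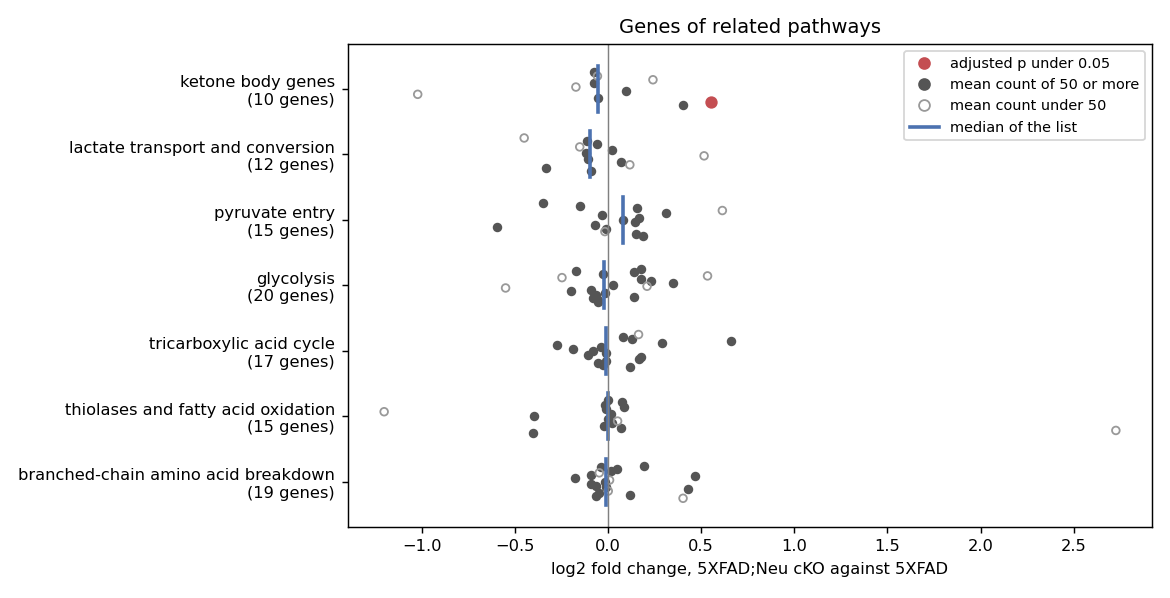
Log2 fold change of each tested gene of 7 lists, cKO-labelled libraries against controls, with filled points for genes with a mean count of 50 or more, open points for others, red for an adjusted p under 0.05 and a blue line at each list's median. Acat1 is the 1 red point, and the medians lie between -0.10 and 0.078.

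Cell type markers moved between the same groups. All 12 microglial markers had lower values in the cKO-labelled libraries, 6 of them past edgeR's adjusted threshold, with a summed level of 326 to 409 CPM against 479 to 703 CPM. All 10 oligodendrocyte markers had lower values, 1 past the threshold, at 1875 to 2949 CPM against 2118 to 3106 CPM. All 5 red cell markers had higher values, 2 past the threshold, at 46.9 to 211 CPM against 6.34 to 51.4 CPM. Sums for excitatory neurons (3815 to 4331 CPM against 3974 to 4861 CPM), astrocytes (3619 to 4205 CPM against 3768 to 4430 CPM), endothelial cells (303 to 340 CPM against 270 to 365 CPM) and inhibitory neurons (490 to 616 CPM against 469 to 588 CPM) overlapped. The most abundant markers make up most of the astrocyte and excitatory neuron sums, so these sums say little of the rest. Of the astrocyte markers 8 of 9 had lower values, 1 past the threshold. No marker was at 0 in all libraries. The part of these shifts in the difference of Acat1 was not tested.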

How the data were processed

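QuantSeq 3′ single reads were trimmed by the authors with bbduk, mapped to GRCm39 (STAR 2.7.3a) and assigned to Ensembl genes by htseq-count (0.9.1 in the submitters' processing notes, another version in the methods). The deposited values are raw counts, 1 file per mouse. Of 53700 identifiers, 52610 were given a symbol from GENCODE vM39 of the same build, a later release used for names and places only.

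Genes needed more than 10 reads over all libraries. The test was that of edgeR 4.0.16 under R 4.3.3 (TMM, quasi-likelihood test, group as the only term, adjusted p over 19268 genes, threshold 0.05). Standard errors are the fold change over the square root of F. Ratios used a prior count of 0.5 and every relabelling of the libraries. Windows were placed with minimap2 2.31. Of these steps only the edgeR fit was tested on simulated data, at no change and at a change larger than that of Acat1. DESeq2 1.42.0, which the authors used, other size factors and filters, a robust fit, no mitochondrial genes, the replicate block and leaving out each library were alternatives. Members and lists were chosen with earlier results of these data known. From each list the text names genes past the threshold and the highest and lowest with a mean count of 50 or more, except for results that are not reported here. Acat2, Aacs, Oxct2a, Oxct2b, Bsg and Nptn are outside this rule and were chosen after their values were seen. No pair of libraries within a group agreed within sampling noise (smallest chi-square per degree of freedom 5.87). Reads on no gene were 31.3% to 39.9% and entered no test.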

Additional observations from a re-analysis of the deposited data

Results flagged for a closer look

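In each group of 5 libraries a sample far from the others was looked for in the genes and ratios named, 62 groups in all. Chance marks about 1 in 20, and 6 were found, which is 9.68%. Ldha was at 45.3 CPM in 5XFAD replicate 5 against 67.4 to 76.3 CPM in the other 4 (gap over range 0.715). Pdk3 was at 34.9 CPM in 5XFAD;Neu cKO replicate 5 against 21.5 to 24.8 CPM (0.754). The other 4 are in neighbours of Acat1 with few reads. 4930550C14Rik was at 1.97 CPM in 5XFAD;Neu cKO replicate 3 (0.927). Rps6-ps3 was at 0.746 CPM in 5XFAD replicate 4 (0.740) and 0.673 CPM in 5XFAD;Neu cKO replicate 4 (0.722). Rab39 was at 3.49 CPM in 5XFAD replicate 1 (0.766).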

How the results depend on the processing

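Acat1 passed under all 7 alternatives that kept every mouse, with log2 fold changes from 0.55 to 0.57 and adjusted p-values from 0.00156 to 0.0235. With 1 library left out its log2 fold change ran from 0.49 to 0.62. The other 6 members passed in none of the 17 alternatives, and the 3 ratios in none of the 11 in which they could; with the replicate block their smallest possible p is 0.0625, so that fit says nothing of them. With 1 library left out, log2 fold changes ran from 0.0074 to 0.18 for Bdh1, -0.12 to -0.037 for Oxct1, -0.21 to -0.049 for Slc16a7 and -0.15 to -0.067 for Ldhb. The log2 ratio differences ran from 0.072 to 0.25 for Ldha to Ldhb, -0.30 (without 5XFAD replicate 2) to -0.029 (without 5XFAD replicate 5) for Slc16a7 to Slc16a1 and -0.25 to -0.094 (without 5XFAD replicate 2) for Oxct1 to Bdh1. Signs turned for Slc16a1, from -0.094 to 0.10 with 1 library left out, and for Ldha, from -0.040 to 0.13. The number of genes past the threshold was 42, with 73 in DESeq2, 103 with no filter on low counts and 26 to 72 with 1 library left out (26 without 5XFAD replicate 2, 27 without 5XFAD;Neu cKO replicate 4 or 5, 72 without 5XFAD;Neu cKO replicate 1). Calls among ketone body genes went from 1 to 0 in the 4 fits in which Acat1 did not pass, without 5XFAD replicate 2 or 5 or 5XFAD;Neu cKO replicate 4 or 5. The cause was not tested. Same-numbered libraries did not deviate together (correlations from -0.084 to 0.052, 0 of 5 best with their own number). Whether they share a litter or a batch is not given, and these few correlations cannot settle it. With the replicate block 112 genes passed, with 1 in the tricarboxylic acid cycle list (Sdhd). Members averaged 145 to 1614 reads per library, and for each of the 7 the variation between mice was larger than counting noise.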
